A study of Mus musculus with 10 samples.

Results

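Cholesterol synthesis genes of mouse embryonic stem cells (mESCs) were examined as a list of 8 named genes: Hmgcs1, Idi1, Fdps, Fdft1, Sqle and Lss, which encode enzymes on the way from acetyl units to the first sterol, Dhcr7, which encodes an enzyme of its last part, and Insig1, which encodes a sterol-sensing brake on the pathway. The members were found by symbol in the table that pairs the array's probes with genes. A named probe was found for 6 of the 8, among 9401 genes measured, and the 6 were read by 10 probes, each detected on all 10 arrays. Hmgcs1 and Fdft1 had no named probe and were not analysed here. None of the 6 measured members takes up cholesterol, so they are called cholesterol synthesis genes below.

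Animal cells make cholesterol from acetyl-CoA through mevalonate, isoprenoid diphosphates, squalene and lanosterol. When sterols in the endoplasmic reticulum run low, the protein Scap carries the transcription factor SREBP2 to the Golgi, where it is cut and set free to switch on genes of the pathway and Insig1 itself, and Insig proteins hold Scap back when sterols are plentiful. The isoprenoid diphosphates also feed protein prenylation, ubiquinone and dolichol, and cells grown in serum can take cholesterol from lipoproteins in place of making it.

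The cells were G-CCE mESCs, a 129/sv line grown without feeder cells on gelatin in medium with 15% fetal bovine serum. All 5 lines were sampled at d0, in medium with LIF at 1000 U/ml, a cytokine that keeps mESCs undifferentiated, and at d3, after 3 days without LIF. The methods give hanging drops, in which cells form aggregates, as the way of differentiation, and the form of culture and the loss of LIF cannot then be told apart. WT cells were labelled as not transfected. The line labelled MMTR KD was transduced with a lentivirus that carries an shRNA against MMTR/Dmap1, a subunit of the Tip60-p400 chromatin complex, and its clones were picked by EGFP, while the lines labelled MMTR-F, MMTR-C and MMTR-N were transfected with Flag-tagged full-length MMTR/Dmap1, its C-terminal part and its N-terminal part, and were selected with puromycin. Each line and day had 1 library (array), so the lines were the only repeats of the day comparison, and p-values measured the spread between these lines and not between replicate cultures.

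Promoter windows of the members are shown because a sterol-responsive promoter holds short sites for SREBP and for NF-Y, the factor that binds CCAAT. RefSeq windows (mouse GRCm38.p6, 250 bases before to 50 bases after a start site) were found for 5 of the 8 genes. They are chr5:28071162-28071461 for Insig1, chr7:143829964-143830263 for Dhcr7 (the one of its 3 windows that holds CCAAT), chr10:76531355-76531654 for Lss, chr13:8885356-8885655 for Idi1 and chr13:119690101-119690400 for Hmgcs1, all on the + strand and 5′ to 3′. Capitals mark CCAAT or its reverse complement ATTGG, and the SREBP site letters TCACNCCAC.
Insig1: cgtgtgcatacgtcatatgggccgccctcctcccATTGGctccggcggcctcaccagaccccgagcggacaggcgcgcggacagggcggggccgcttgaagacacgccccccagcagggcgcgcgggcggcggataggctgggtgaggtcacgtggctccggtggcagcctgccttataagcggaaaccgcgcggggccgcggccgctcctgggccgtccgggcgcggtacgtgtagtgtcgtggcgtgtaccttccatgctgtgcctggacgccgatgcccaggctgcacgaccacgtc
Dhcr7: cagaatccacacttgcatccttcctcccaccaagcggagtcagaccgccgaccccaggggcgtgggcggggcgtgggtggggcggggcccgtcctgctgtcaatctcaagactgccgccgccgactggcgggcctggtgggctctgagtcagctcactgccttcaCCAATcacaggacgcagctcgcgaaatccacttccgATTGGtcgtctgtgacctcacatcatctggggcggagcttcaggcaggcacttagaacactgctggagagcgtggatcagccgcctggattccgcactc
Lss: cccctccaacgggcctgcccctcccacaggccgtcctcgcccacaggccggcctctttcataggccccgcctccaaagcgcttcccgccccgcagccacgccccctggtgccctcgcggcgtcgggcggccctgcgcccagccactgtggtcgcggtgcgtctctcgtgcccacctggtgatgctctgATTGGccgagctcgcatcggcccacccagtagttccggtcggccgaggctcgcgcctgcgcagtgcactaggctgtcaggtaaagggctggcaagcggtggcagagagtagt
Idi1: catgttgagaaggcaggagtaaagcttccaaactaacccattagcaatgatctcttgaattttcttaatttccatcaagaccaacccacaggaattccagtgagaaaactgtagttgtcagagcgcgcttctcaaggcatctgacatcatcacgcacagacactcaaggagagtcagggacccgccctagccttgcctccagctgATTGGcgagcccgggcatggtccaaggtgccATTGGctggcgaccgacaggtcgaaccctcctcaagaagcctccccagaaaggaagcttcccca
Hmgcs1: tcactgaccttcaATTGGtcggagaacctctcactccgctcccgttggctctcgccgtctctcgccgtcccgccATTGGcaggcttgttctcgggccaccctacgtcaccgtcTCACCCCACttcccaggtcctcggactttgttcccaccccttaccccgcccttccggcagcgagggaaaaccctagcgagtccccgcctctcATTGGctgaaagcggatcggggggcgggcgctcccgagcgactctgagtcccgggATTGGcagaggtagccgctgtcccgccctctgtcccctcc
CCAAT was found on one strand or the other in a window of all 5 genes, and in 37.4% of the 32851 windows of all genes. The 5 genes had 7 windows, and the other windows of Dhcr7 held no CCAAT. Genes are counted here by any of their windows, while the shares are of single windows. It lay at -85 and -49 in Dhcr7, at -62 in Lss, at -45 and -14 in Idi1, at -216 in Insig1 and at -237, -176, -45 and 10 in Hmgcs1, counted with the start site at 0. TCACNCCAC was found only in Hmgcs1, at -137, and in 1.24% of all windows. CACGTG, the E-box that SREBP1 can also bind, was found in Insig1 and in another window of Dhcr7 (7.15% of all windows), and the Sp1 letters GGGCGG in all 5 genes (35.7%). These are matches of letters, with both strands searched, and no binding was measured here. Most of the 15 other sterol synthesis enzymes listed had a window (13 genes), and 11 of these held CCAAT.

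The probe for Dmap1 itself read 12.00 on the normalized log2 scale in both libraries labelled MMTR-C. It read 10.59 at d0 and 10.42 at d3 in WT, 10.78 and 10.38 in MMTR KD, 10.48 and 10.18 in MMTR-F and 10.52 and 10.34 in MMTR-N. The libraries labelled MMTR KD and MMTR-F were thus not set apart from WT by this probe, and the lines are named as labelled throughout. The median raw signal of the arrays was 217.7 to 243.9 at d0 and 337.3 to 346.8 at d3, and 18152 to 18837 probes were detected at d0 and 16699 to 17710 at d3. The day of culture and anything else that differed between the arrays of the days cannot be told apart. In cultures measured in bulk, fewer cells that express a gene and less RNA per cell cannot be told apart either.

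Between d0 and d3, transcripts of 4 of the 6 measured members rose over the 5 lines, 1 fell and 1 did not pass the test by the probe that stands for the gene. Sqle rose by 1.19 on the log2 scale, Fdps by 0.97, Lss by 0.51 and Dhcr7 by 0.42, and Idi1 fell by 0.39. The change of Insig1 was 0.32 and did not pass. The test was limma with line and day as terms (two-sided, Benjamini-Hochberg adjusted over 17775 probes, passed at an adjusted p under 0.05). It called 24.0% of all probes higher at d3 and 24.7% lower. The median change of the 6 members was 0.47, and that of all probes was 0.00.

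**Figure D1:**
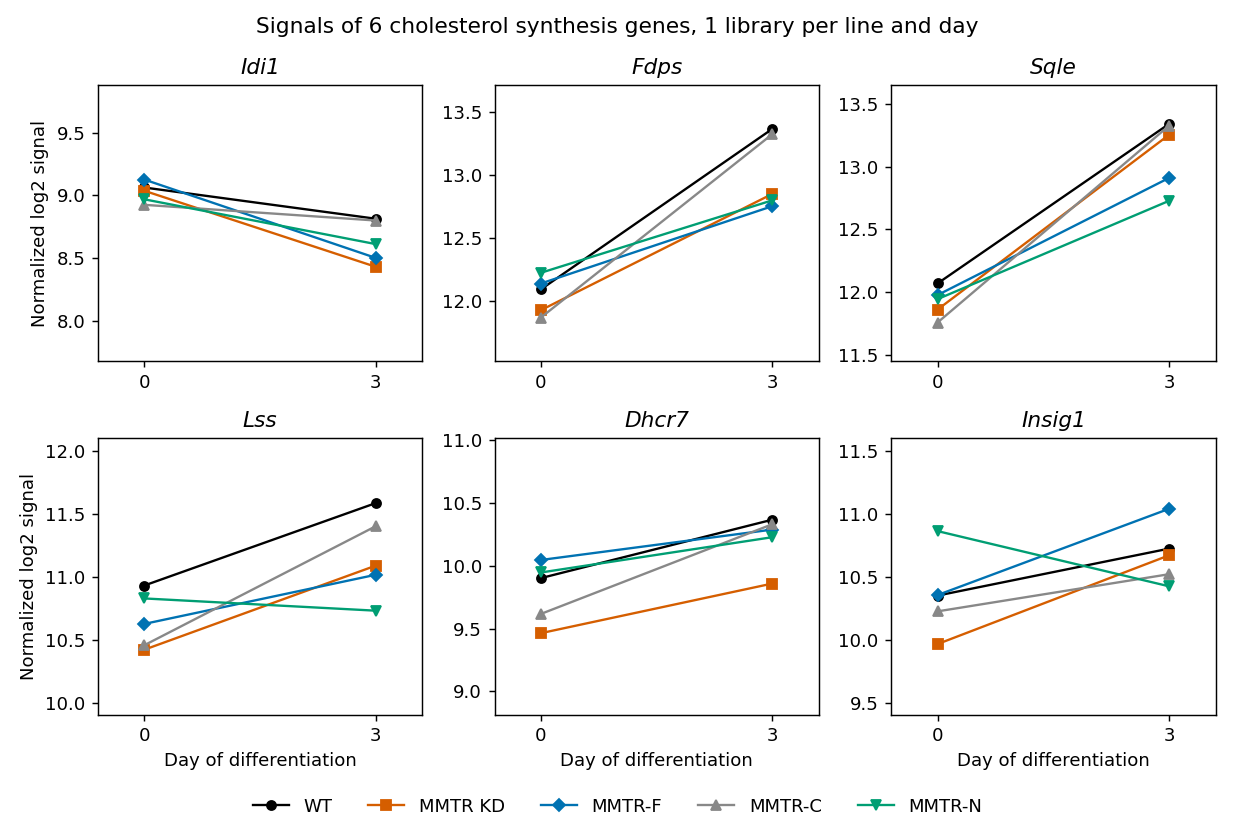
Normalized log2 signal (vertical axis) at d0 and d3 (horizontal axis) of the 6 measured members, 1 panel per gene over a span of 2.2 log2 units, with 1 point per library and a line joining the days of a cell line. The d3 points lie above all d0 points for Fdps and Sqle and below them for Idi1, and the line of MMTR-N goes down in the panels of Lss and Insig1.

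Idi1 encodes isopentenyl diphosphate isomerase, which turns one C5 isoprenoid unit into the other. Its log2 signal at d0 was 9.06 for WT, 9.04 for MMTR KD, 9.13 for MMTR-F, 8.92 for MMTR-C and 8.97 for MMTR-N. At d3 it was 8.81, 8.43, 8.50, 8.80 and 8.61 in the same order. All 5 d3 values lay below all d0 values, as for 13.9% of probes, and MMTR KD and MMTR-F were the lowest. The change was -0.39 (SE 0.083, limma adjusted p = 0.0057, lower in 5 of 5 lines). Idi1 was the dimmest of the probes that stand for the 6 genes (raw signal 400 to 545), and its change was -1.24 under the RMA background model and -0.90 under neqc.

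Fdps encodes farnesyl diphosphate synthase, which makes the C15 unit that goes to squalene or to prenylation. Its log2 signal at d0 was 12.09 for WT, 11.93 for MMTR KD, 12.14 for MMTR-F, 11.87 for MMTR-C and 12.22 for MMTR-N. At d3 it was 13.37, 12.85, 12.75, 13.33 and 12.80. The days did not overlap, as for 12.5% of probes higher at d3, and at d3 WT and MMTR-C stood apart from the other lines at the top. The change was 0.97 (SE 0.13, limma adjusted p = 7e-04), or 1.96-fold. A second, dimmer probe of Fdps also rose, by 0.42 (SE 0.094, limma adjusted p = 0.0069), with a change of -0.02 in MMTR-N.

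Sqle encodes squalene epoxidase, which adds the oxygen to squalene and is a control point of the pathway. It was among the brightest of the members. Its log2 signal at d0 was 12.07 for WT, 11.86 for MMTR KD, 11.98 for MMTR-F, 11.76 for MMTR-C and 11.95 for MMTR-N. At d3 it was 13.34, 13.25, 12.91, 13.33 and 12.73. WT, MMTR KD and MMTR-C lay within 0.1 of each other at d3, and MMTR-F and MMTR-N lay below them. The change was 1.19 (SE 0.11, limma adjusted p = 0.00014, higher in 5 of 5 lines), or 2.28-fold, and a second probe rose by 0.74 (SE 0.11, limma adjusted p = 0.001).

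Lss encodes lanosterol synthase, which closes the squalene epoxide into the first sterol. Its log2 signal at d0 was 10.93 for WT, 10.42 for MMTR KD, 10.63 for MMTR-F, 10.46 for MMTR-C and 10.83 for MMTR-N. At d3 it was 11.59, 11.09, 11.02, 11.40 and 10.73. The days overlapped, because MMTR-N was lower at d3 than at d0 while the other 4 lines were higher. The change was 0.51 (SE 0.13, limma adjusted p = 0.014), and 0.33 with an adjusted p of 0.073 when each array was scaled to a common median by limma on the same probes.

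Dhcr7 encodes 7-dehydrocholesterol reductase, which makes cholesterol in the last step of one branch of the pathway. Its log2 signal at d0 was 9.90 for WT, 9.46 for MMTR KD, 10.05 for MMTR-F, 9.62 for MMTR-C and 9.95 for MMTR-N. At d3 it was 10.37, 9.86, 10.29, 10.33 and 10.23. MMTR KD was the lowest library on both days, and the days overlapped. The change was 0.42 (SE 0.075, limma adjusted p = 0.0026, higher in 5 of 5 lines).

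Insig1 encodes the membrane protein that holds Scap in the endoplasmic reticulum. By its brightest probe the log2 signal at d0 was 10.35 for WT, 9.97 for MMTR KD, 10.36 for MMTR-F, 10.23 for MMTR-C and 10.86 for MMTR-N. At d3 it was 10.72, 10.67, 11.04, 10.52 and 10.42. MMTR-N went from the highest library at d0 to the lowest at d3, and the days overlapped. The change was 0.32 (SE 0.15, limma adjusted p = 0.11), and without both MMTR-N libraries it was 0.52 (limma adjusted p = 0.0037). When any other line was left out, the change was 0.23 to 0.33 and did not pass (limma adjusted p = 0.19 to 0.3). The other probes of Insig1 rose by 0.35 (SE 0.079, limma adjusted p = 0.0072) and 0.42 (SE 0.086, limma adjusted p = 0.0048), with changes of 0.10 and 0.02 in MMTR-N, so the probes of this gene differed in whether they passed.

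**Figure D2:**
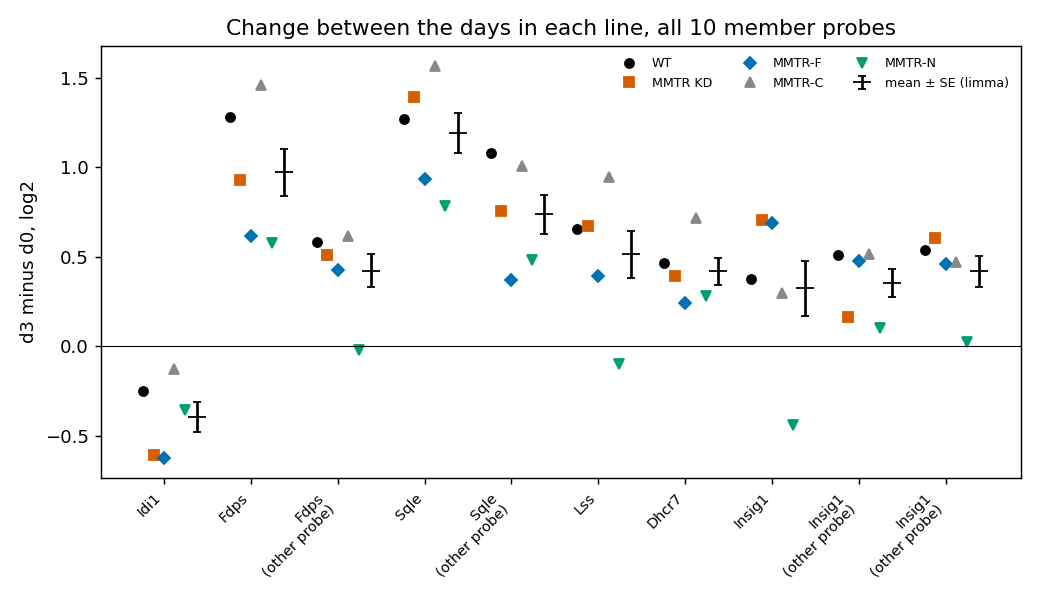
Change from d0 to d3 (log2, vertical axis) for each of the 10 member probes (horizontal axis), 1 marker per cell line, with the limma mean and its standard error as a bar beside them. MMTR-N is the only line below 0 for Lss, for the brightest Insig1 probe and for the dimmer Fdps probe, and every line is below 0 for Idi1.

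The size of the change differed between lines. MMTR-C had a median change of 0.83 over the 6 members, MMTR KD of 0.69, WT of 0.56, MMTR-F of 0.50 and MMTR-N of 0.09. By the probe that stands for each gene, MMTR-C had the highest value of the 5 lines for Fdps (1.46), Sqle (1.57), Lss (0.95) and Dhcr7 (0.71). By these probes MMTR-N had the lowest for Fdps (0.58), Sqle (0.78), Lss (-0.10) and Insig1 (-0.44). By the second Sqle probe WT had the highest (1.08, MMTR-C 1.01) and MMTR-F the lowest (0.37, MMTR-N 0.48). A change of at least 0.5 upward was reached by 4 members in MMTR-C (9.42% of all probes), 4 in MMTR KD (8.56%), 3 in MMTR-F (6.85%), 3 in WT (9.31%) and only 2 in MMTR-N (8.93%). Idi1 was at least 0.5 lower in MMTR KD and in MMTR-F, where 8.01% and 6.50% of probes were. Each value rests on 2 libraries, so the difference between lines was not tested.

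The lines were also set against WT of the same day. At d3, WT had the highest signal for 5 of the 6 members, and MMTR-F had it for Insig1 by its brightest probe. By the other Insig1 probes WT was the highest, and MMTR-F differed from it by -0.02 and -0.08. MMTR-F read lower than WT for 5 of the 6 members, and each of the other 3 lines for all 6. Of all 17775 probes, those lower than WT at d3 numbered 9559 for MMTR-N, 9286 for MMTR-F, 9210 for MMTR KD and 9186 for MMTR-C. The median difference from WT at d3 was -0.44 for MMTR KD, -0.43 for MMTR-N, -0.37 for MMTR-F and -0.04 for MMTR-C. All these differences share 1 WT library, so that its own error enters each of them.

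The members farthest below WT at d3 were not the same in every line. In MMTR-N, 3 members were at least 0.5 lower, namely Lss (-0.86), Sqle (-0.61) and Fdps (-0.57), where 3.36% of all probes were that much lower. In MMTR-F they were Fdps (-0.62) and Lss (-0.57), against 2.86% of probes. In the library labelled MMTR KD they were Fdps (-0.52) and Dhcr7 (-0.51), against 2.85%. Lss was also -0.50 there, just inside the limit. In MMTR-C no member was (0.287% of probes), and its differences lay between -0.20 and -0.01.

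Dimmer probes were in part the same. At d3 the second Sqle probe differed from WT by -0.80 for MMTR-N, -0.50 for MMTR-F, -0.35 for MMTR KD and -0.08 for MMTR-C. The second Fdps probe was -0.70, -0.29, -0.34 and 0.01 in that order of lines. MMTR-N was the lowest line by both, and MMTR-C the nearest to WT.

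**Figure D3:**
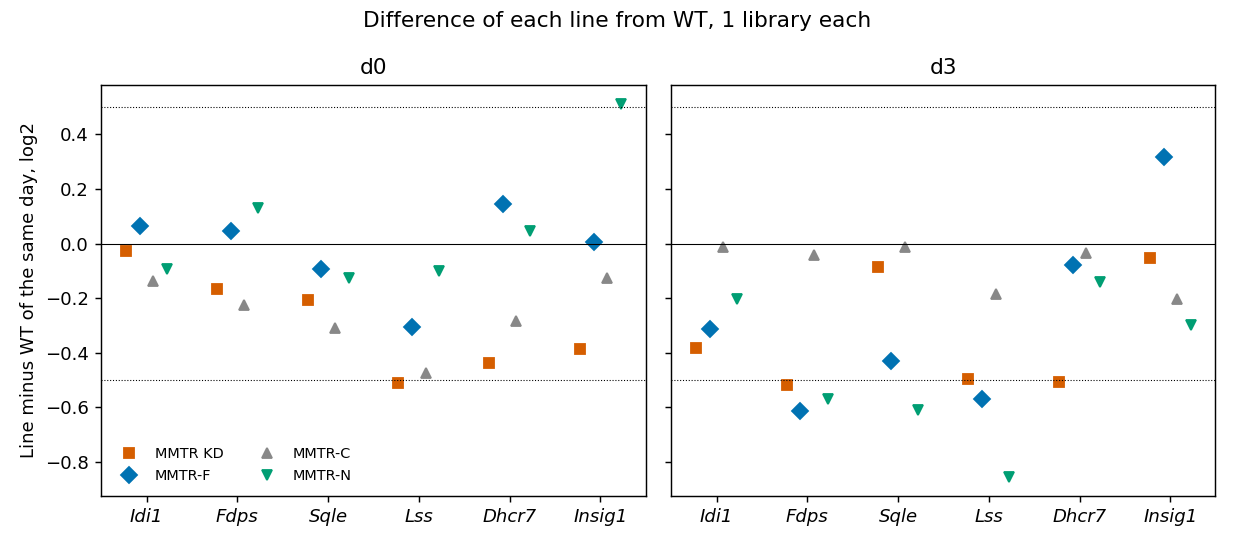
Difference of each line from WT of the same day (log2, vertical axis) for the 6 members (horizontal axis), at d0 on the left and d3 on the right, 1 marker per line and 1 library behind each. Dotted lines mark 0.5 and -0.5, and at d3 the markers of Fdps in MMTR KD, MMTR-F and MMTR-N lie below -0.5 while that of MMTR-C is at -0.04.

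At d0 the lines labelled MMTR-F and MMTR-N stood nearer to WT than the others. The median difference of the 6 members from WT at d0 was 0.03 for MMTR-F, -0.02 for MMTR-N, -0.25 for MMTR-C and -0.30 for MMTR KD. By the probe that stands for each gene, all 6 members were lower than WT in MMTR KD and in MMTR-C. Among all 17775 probes, 8733 were lower than WT in MMTR KD and 9125 in MMTR-C. By a dimmer probe Insig1 was 0.10 above WT in MMTR KD, and by another it was 0.06 above WT in MMTR-C. A difference of at least 0.5 was reached by Lss in MMTR KD (-0.51, where 4.88% of probes were that much lower) and by Insig1 in MMTR-N (0.51, where 2.03% were that much higher). The dimmer Insig1 probes were also above WT in MMTR-N, but by less than 0.5.

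No member passed the limma test of a line against WT over both days (0 of 24 tests, 2 with an unadjusted p under 0.05, both in MMTR KD). The lowest adjusted p was 0.073, for Dhcr7 in MMTR KD, which differed from WT by -0.47 (SE 0.12) and was lower on both days. Lss in MMTR KD was at -0.50 (SE 0.21, adjusted p = 0.23 by limma). Of all probes the same test called 3.31% for MMTR KD, 0.0731% for MMTR-N, 0.0450% for MMTR-F and 0.0169% for MMTR-C. With each array scaled to a common median, 1 member difference passed, that of Dhcr7 in MMTR KD. In this test the 2 days of a line were its only repeats, and they are not independent cultures of a construct. The construct, the clone and the selection cannot be told apart in it.

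Markers of undifferentiated mESCs changed between the days in the same cultures. All 8 listed markers were measured, and 6 fell over the lines (limma, adjusted p under 0.05), as did 24.7% of all probes. Their median change was -0.85. Pou5f1 and Utf1 did not pass, at -0.28 and 0.02. The summed linear signal of the 8 was 126105 to 141259 at d0 and 48258 to 98993 at d3, and no marker was at 0. At d3 it was lowest in WT (48258) and MMTR-C (56684), and highest in MMTR-F (98993), with MMTR KD (72127) and MMTR-N (84553) between them. WT and MMTR-C were also the lines with the highest d3 signals of each member but Insig1, and the part of the remaining mESC state in these values was not tested.

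Markers of other cell types were mostly without a named probe. Of 7 fibroblast markers only Thy1 was measured, at 9.16 to 10.06 at d0 and 9.97 to 10.30 at d3, and it rose by 0.54 (SE 0.15, limma adjusted p = 0.017, higher in 4 of 5 lines). Of 9 visceral and primitive endoderm markers only Amn was, at 8.25 to 8.50 in all libraries but those labelled MMTR KD, where it read 9.29 and 9.39 (1.00 above WT over both days, SE 0.090, limma adjusted p = 0.0081). None of 4 hepatocyte markers was measured. Whether such cells had a part in the results was not tested.

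Other enzymes of sterol synthesis moved with the members in part. Of 15 listed, 11 were measured, 7 rose, 1 fell and 3 did not pass, with a median change of 0.26. For this list and those below, the shares of all probes called were 24.0% higher and 24.7% lower. Msmo1, a C4-demethylation enzyme of sterols, rose by 1.24 (SE 0.13, limma adjusted p = 0.00022), and Cyp51, the lanosterol 14-demethylase, rose by 1.11 (SE 0.13, limma adjusted p = 0.00031). Lbr, a sterol reductase of the nuclear envelope, rose by 0.67 by its brighter probe and was at 0.04 by the other, which did not pass. Ebp, a sterol isomerase, fell by 0.51 (SE 0.10, limma adjusted p = 0.0042, lower in 5 of 5 lines).

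In MMTR-N the median change of these 11 enzymes was 0.05, and in WT it was 0.44. Cyp51 rose by 0.47 in MMTR-N and by 1.14 to 1.37 in the other lines. Msmo1 rose by 0.71 in MMTR-N and by 1.04 to 1.70 elsewhere. MMTR-N was thus the line with the smallest rise for both, as for Fdps and Sqle by their brightest probes. For Fdps MMTR-F was close to it (0.62 against 0.58). By the second Sqle probe MMTR-F rose least (0.37, against 0.48 in MMTR-N). At d3, 4 of the 11 were at least 0.5 below WT in MMTR-N, where 3.36% of all probes were, and the median difference from WT was -0.47.

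Genes that control SREBP or carry cholesterol were read as well. Of 17 listed, 11 were measured, and by the probe that stands for each gene 4 rose, 1 fell and 6 did not pass, with a median of 0.10. Npc1 is counted among the 4, although its probes disagreed. Srebf2, which encodes SREBP2, rose by 0.22 (SE 0.051, limma adjusted p = 0.0092) and by 0.37 by a second probe, in 5 of 5 lines. Srebf1, which encodes SREBP1, was at 0.13, Scap at -0.07 and Insig2, a relative of Insig1, at 0.10, and none of these passed. Stard4, a carrier of cholesterol between membranes, rose by 0.75 (SE 0.087, limma adjusted p = 0.00036). Npc1, which exports cholesterol from lysosomes, rose by 0.89 by the probe with the highest mean signal and fell by 0.61 by another, both past the test (limma adjusted p = 3.1e-05 and 0.00033), so that no direction is given for this gene. Lipa, a lysosomal lipase that frees cholesterol from its esters, rose by 0.29 (limma adjusted p = 0.036), while a second probe of it was at 0.17 and did not pass (limma adjusted p = 0.091), and MMTR-F was below 0 by both (-0.05 and -0.10).

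Enzymes of fatty acid synthesis, many of them under SREBP1, rose in part. Of 15 listed, 13 were measured, 7 rose, none fell and 6 did not pass, with a median of 0.50. Mid1ip1, an activator of acetyl-CoA carboxylase, rose by 1.32 (SE 0.11), Acsl3, an acyl-CoA synthetase, by 1.23 (SE 0.088), Scd2 by 0.74 (SE 0.17) and Scd1, both desaturases, by 0.56 (SE 0.15). The median change was 0.59 in WT and -0.05 in MMTR-N. MMTR-N was at -0.12 for Scd2 and -0.05 for Scd1, and the 4 other lines were above 0 for both.

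Genes of cholesterol efflux, esterification and oxysterols were measured for 7 of 14, of which 3 rose and 4 did not pass (median 0.14). Abcg1, a sterol exporter whose probe was detected on 9 of the 10 arrays, rose by 0.38, Cyp27a1 and Cyp7b1, sterol hydroxylases, both by 0.37, and Lpcat3, a phospholipid-remodelling enzyme, was at 0.14 and did not pass, while a second probe of it fell by 0.42. The isoprenoid branch, which uses the product of Fdps, was measured for 10 of 13 genes, and 2 rose, 3 fell and 5 did not pass, with a median of 0.01. Of all probes, 24.0% passed as higher and 24.7% as lower, so the counts of the isoprenoid branch are near the shares of all probes. Fntb, a farnesyltransferase subunit, fell by 0.48, Coq2, of ubiquinone synthesis, by 0.38 and Rabggta by 0.29. Fnta, the other farnesyltransferase subunit, rose by 0.27 and by 0.30 by a second probe, and both passed. Rabggtb was at 0.06 and did not pass, while a second probe of it passed at 0.19. Dhdds, of dolichol synthesis, passed as higher, but its probe was detected on only 6 of the 10 arrays, so no size is given.

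**Figure D4:**
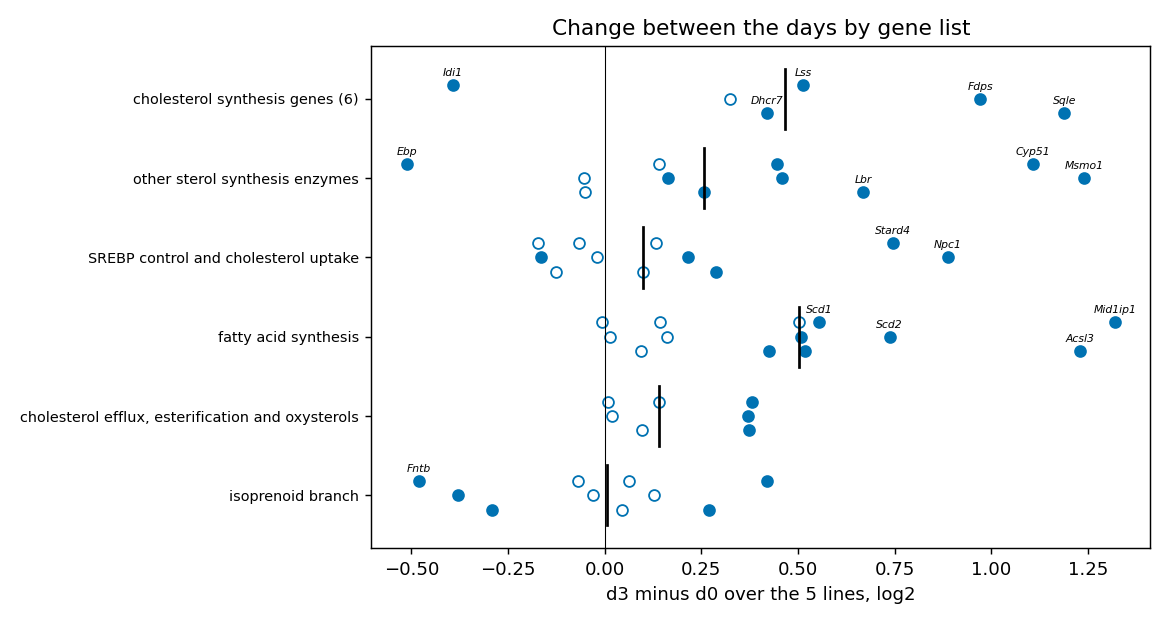
Change from d0 to d3 over the 5 lines (log2, horizontal axis) for each measured gene of the cholesterol synthesis list and of 5 related lists (rows). Filled points passed the limma test, open points did not, black bars are medians, and the vertical offsets only part the points. The medians are 0.47 for the 6 members, 0.26, 0.10, 0.50, 0.14 and 0.01 from the second row down.

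A few related genes differed from WT on both days, which were the only repeats of a line. In MMTR KD, Msmo1 differed from WT by -1.01 (limma adjusted p = 0.041) and Mvd, the mevalonate diphosphate decarboxylase, by -0.76 (limma adjusted p = 0.036) over both days. Both lie on chromosome 8, where the median difference of MMTR KD from WT over 814 named probes was -0.26 at d0 and -0.31 at d3, against 0.02 and 0.00 over 13453 probes of other chromosomes. None of the 6 measured members lies on chromosome 8. Nus1, a dolichol synthesis subunit, differed by -0.60 (limma adjusted p = 0.024) and Cyp7b1 was higher by 0.75 (limma adjusted p = 0.024) in MMTR KD. Nus1 was named after its values were seen.

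Past 0.5 in the same direction on both days but not past the test were Scd2 in MMTR KD (-0.89 and -0.67), Ebp in MMTR-F (0.59 and 1.04), Acss2, an acetyl-CoA synthetase, in MMTR-F (0.87 and 0.66) and Apoe, the apolipoprotein, in MMTR-N (0.85 and 0.82). The mESC marker Esrrb was also above WT in MMTR-F, by 0.53 and 2.13. Ebp, which fell between the days in every line, was higher than WT in MMTR-F at d3, where Fdps and Lss were lower.

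The genes with the pattern most like the mean of the 6 members over the 10 libraries were Crls1, a cardiolipin synthase (Pearson r = 0.984), Sox12 (0.980), Bcl10 (0.977), Csnk1g3 (0.976) and Cyp51 (0.974), followed by Fbxo30, Srsf2, Ppp1ca, Atp6v0e2 and Unc5b (0.973 to 0.959), out of 9395 genes. These are descriptions over 10 libraries that share the change between the days. By Spearman correlation 4 of these 10 genes were among the 10 highest, and Srsf2 was tied with the last of the highest at 0.976. Cyp51 and Msmo1 of the sterol enzymes were both at 0.988. After the mean of each day was taken off, 7 of the 10 were again among the 10 highest, led by Crls1 (0.956) and Cyp51 (0.929), and Gm2027, Mga and Mettl8 came in.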

How the data were processed

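RNA from 10 cultures was hybridised to Illumina Mouse WG-6 v2 bead arrays. The authors deposited non-normalized signal intensities with a detection p-value per probe, and filtered, quantile-normalized log2 values. The submitters' processing notes name BeadStudio 3.2 and lumi, the series text also names an RMA background step, and the methods name GenomeStudio. Tested on the tables, the deposited log2 values matched quantile normalization of the signals without background correction to within 0.044. Here a probe was kept when its detection p did not exceed 0.05 on 5 or more arrays (17775 of 45281). Kept signals were log2 transformed, then quantile normalized. A gene table named 14281 of them, for 9401 symbols, and the brightest probe on average stood for a gene. The fit used limma 3.58.1 (R 4.3.3), had terms for line and for day with 4 residual degrees of freedom, and was checked on simulated data. Differences between single libraries were counted at 0.5 with no test. Named were the members and, per related list, up to 4 genes with the largest changes between the days, SREBP control genes and genes past 0.5 from WT on both days. The members and lists were chosen with earlier results of these data known. The number of arrays limits the precision. Alternatives covered background correction, normalization, filters, the probe, the threshold, the control, the test and leaving out each line.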

Additional observations from a re-analysis of the deposited data

Results flagged for a closer look

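In MMTR-N, Lss changed by -0.10 and Insig1, by its brightest probe, by -0.44 between d0 and d3 on the log2 scale, while both were higher at d3 in the 4 other lines. These are single pairs of libraries, and the difference between the lines was not tested.

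Among 20 sets of 5 libraries of a day, 1 library stood apart: Dhcr7 in MMTR KD at d3, at a log2 signal of 9.86, lay below the 4 others by a gap of 0.725 of the whole range (Dixon's limit for 5 samples is 0.71). Chance marks about 1 in 20 such sets.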

How the results depend on the processing

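Over 16 alternatives each member's change between the days kept its direction. Sqle, Fdps, Dhcr7 and Idi1 passed limma under all of them, with adjusted p-values up to 0.00095, 0.0036, 0.024 and 0.022. Lss did not pass with median scaling (0.33, adjusted p = 0.073). Insig1 passed with the mean of its probes (0.37, adjusted p = 0.015) and without MMTR-N (0.52, adjusted p = 0.0037). Leaving out a line gave 4 to 5 members higher and 1 lower. After Benjamini-Hochberg adjustment the methods' own one-tailed test called 2 members higher, against 4 by limma.

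Member differences of at least 0.5 below WT at d0 numbered 1, but 4 with the RMA background model or median scaling, 3 with neqc or normexp, and 0 at a limit of 1. At d3 there were 7, but 11 with RMA and 0 at a limit of 1. The 1 higher at d0 became 0 with the mean of probes or a limit of 1. With median scaling 1 difference from WT over both days passed, against 0. The median change of the members in MMTR-C was 1.09 with RMA. With MMTR-C as the control, the d0 medians were 0.012 for MMTR KD and 0.34 for MMTR-N. The causes were not tested. The line term of the fit pairs the days of each line, and without it 4 members were higher and 1 lower.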
